A study of Mus musculus with 3 samples.

Results

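The genes described here make, break down, bind and sense retinoic acid in the mouse embryo at the onset of somite formation. They are 10 genes found by symbol among the 31054 annotated features of the count matrices, namely the synthesis genes Rdh10, Aldh1a2 and Aldh1a3, the breakdown genes Cyp26a1, Cyp26b1 and Cyp26c1, the binding proteins Crabp1 and Crabp2, and the receptors Rarb and Rarg. The cells came from 3 wildtype embryos (strain C57BL/6 x 129 SvEv) collected at E8.0 with 0 to 1 somite, for which the stage field of the labels allows up to 2 somites. Each embryo was dissociated whole, after its extraembryonic tissue was taken off, and made into 1 droplet library of single cells with 10x Genomics chemistry that reads the 3′ ends of transcripts. There was no treatment or mutant group, the study genotyped all embryos as male, and the comparisons below are between kinds of cells of the same embryos.

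Retinoic acid is a small lipid made from vitamin A in steps. Retinol dehydrogenases such as RDH10 turn retinol into retinaldehyde, retinaldehyde dehydrogenases such as ALDH1A2 oxidise this to retinoic acid, and CYP26 enzymes oxidise retinoic acid to products that are cleared. In the gastrulating and early somite mouse embryo, mesoderm flanking the midline is known as a source of retinoic acid and the CYP26 enzymes as sinks, and retinoic acid bound to RAR and RXR receptors acts on hindbrain, somite, heart and foregut patterning.

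The receptor gene Rarb and the breakdown gene Cyp26a1 are textbook targets of retinoic acid, through direct repeats of a receptor motif with 5 bases between the copies. Promoters from RefSeq (GRCm38.p6), each reaching from 250 bases before to 50 bases after a gene start, were matched to 7 of the 10 genes, giving 8 promoters. They were searched on both strands for pairs, in the same direction, of a motif spelled AGGTCA in one form, AGTTCA in another, or else GGGTCA in the next and GGTTCA in the last. The pair with 5 bases between its motifs was in the promoters of Cyp26a1 and Rarb, 2 of the 8, and in 32 of all 32851 promoters (0.0974%). The 250 bases before each start are shown 5′ to 3′ on the strand of the gene for these 2 genes, whose promoters held the pair, with the motifs in capitals.
Cyp26a1, chr19:37697558-37697807, plus strand: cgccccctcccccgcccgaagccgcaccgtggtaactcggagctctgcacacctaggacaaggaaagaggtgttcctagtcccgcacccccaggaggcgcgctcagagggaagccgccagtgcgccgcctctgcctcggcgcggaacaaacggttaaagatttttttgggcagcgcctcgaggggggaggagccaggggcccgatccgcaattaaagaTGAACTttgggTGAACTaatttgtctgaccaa
Rarb, chr14:16575477-16575726, minus strand: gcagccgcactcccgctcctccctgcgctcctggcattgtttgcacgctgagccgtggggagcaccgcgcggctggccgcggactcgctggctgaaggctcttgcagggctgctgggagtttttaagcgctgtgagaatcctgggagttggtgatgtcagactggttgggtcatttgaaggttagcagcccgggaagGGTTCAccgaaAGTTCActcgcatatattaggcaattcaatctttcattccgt
In Cyp26a1 both motifs are AGTTCA read on the opposite strand, and the pair begins 32 bases before the start. In Rarb they are read on the strand of the gene, and the pair begins 53 bases before a start that lies inside the annotated gene (chromosome 14, 16430839 to 16819156). None of the 8 promoters held a pair with 2 bases between the motifs, which 88 promoters (0.268%) had, or with 1 base, which 73 (0.222%) had. Cyp26c1 (chromosome 19, 37685581 to 37693398) ends 4399 bases before Cyp26a1 (37697798 to 37701536) begins. A match is a description of the letters, and whether a receptor is bound there was not measured.

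The 3 libraries held 23533 barcodes, of which 21595 were kept, and a kept cell had a median of 27635, 14615 and 16332.5 unique molecular identifiers (UMIs, counts of distinct captured transcripts) in embryos 1, 2 and 3. Cells were placed in 18 lineages by the UMIs of marker genes, none of which was a retinoic acid gene, and are called by the lineage with the suffix "-like". This placed 15064 cells (69.8%), from 97 in the germ-cell-like to 2381 in the extraembryonic-endoderm-like group, while 3790 cells matched more than 1 lineage and 2741 none. Median UMIs per cell ranged from 14463 in the allantois-like to 27660 in the midbrain-and-hindbrain-like cells. Levels are in CPM, the UMIs of a gene scaled to the total UMIs of the lineage, summed within an embryo and given as mean ± SD over the 3 embryos. Embryo 1 had 2 erythroid-like cells, so values for that lineage are means of embryos 2 and 3. Because 3′ counts depend on how each transcript is captured, levels were compared between lineages and not between genes.

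Of the synthesis genes, Aldh1a2 is known to encode the main retinaldehyde dehydrogenase of the early embryo (chromosome 9, 71215789 to 71296243, GRCm38). Its level in somitic-mesoderm-like cells was 738, 552.5 and 473 CPM in embryos 1, 2 and 3 (588 ± 136 CPM, SD, n = 3), and in presomitic-mesoderm-like cells 620, 404 and 401 CPM (475 ± 126). These groups overlapped each other, and in every embryo both lay above every other lineage of that embryo. LRO-like cells (left-right organizer) followed with 275, 172 and 88.6 CPM (179 ± 93.5), cranial-mesoderm-like cells with 182, 180 and 121 CPM (161 ± 34.9) and cardiopharyngeal-like cells with 134, 76.5 and 80.2 CPM (97.0 ± 32.3). Ordered by mean level, 14 of the 17 neighbouring pairs of lineages overlapped between embryos. The breaks between neighbours lay below the presomitic-, below the cardiopharyngeal- and below the mesenchyme-like cells. Only the break below the presomitic-like cells parted all lineages above it from all below. Germ-cell-like cells crossed the other breaks. Their highest value, 82.2 CPM, lay above the lowest cardiopharyngeal-like value, and their lowest lay under the highest extraembryonic-endoderm-like value.

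From midbrain-and-hindbrain-like (59.1 ± 18.8 CPM) down to mesenchyme-like cells (27.2 ± 7.64 CPM), 10 lineages formed a continuous range of Aldh1a2 levels, with caudal-epiblast-like cells at 33.6, 52.0 and 48.1 CPM. Definitive-endoderm-like cells held 8.85 ± 2.83 CPM, extraembryonic-endoderm-like cells 8.22 ± 3.11 CPM and erythroid-like cells 5.329 ± 1.401 CPM. Red cell precursors are not a known source of the enzyme. The parts of free RNA and of mixed cells in the erythroid-like and caudal-epiblast-like levels were not tested. A UMI of Aldh1a2 was found in 91.1% ± 5.46 of presomitic-like cells and 5.28% ± 1.39 of erythroid-like cells. After each cell was thinned to 5000 UMIs the shares were 75.4% and 2.15%, from lineages with medians of 19660.5 and 15095 UMIs.

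**Figure D1:**
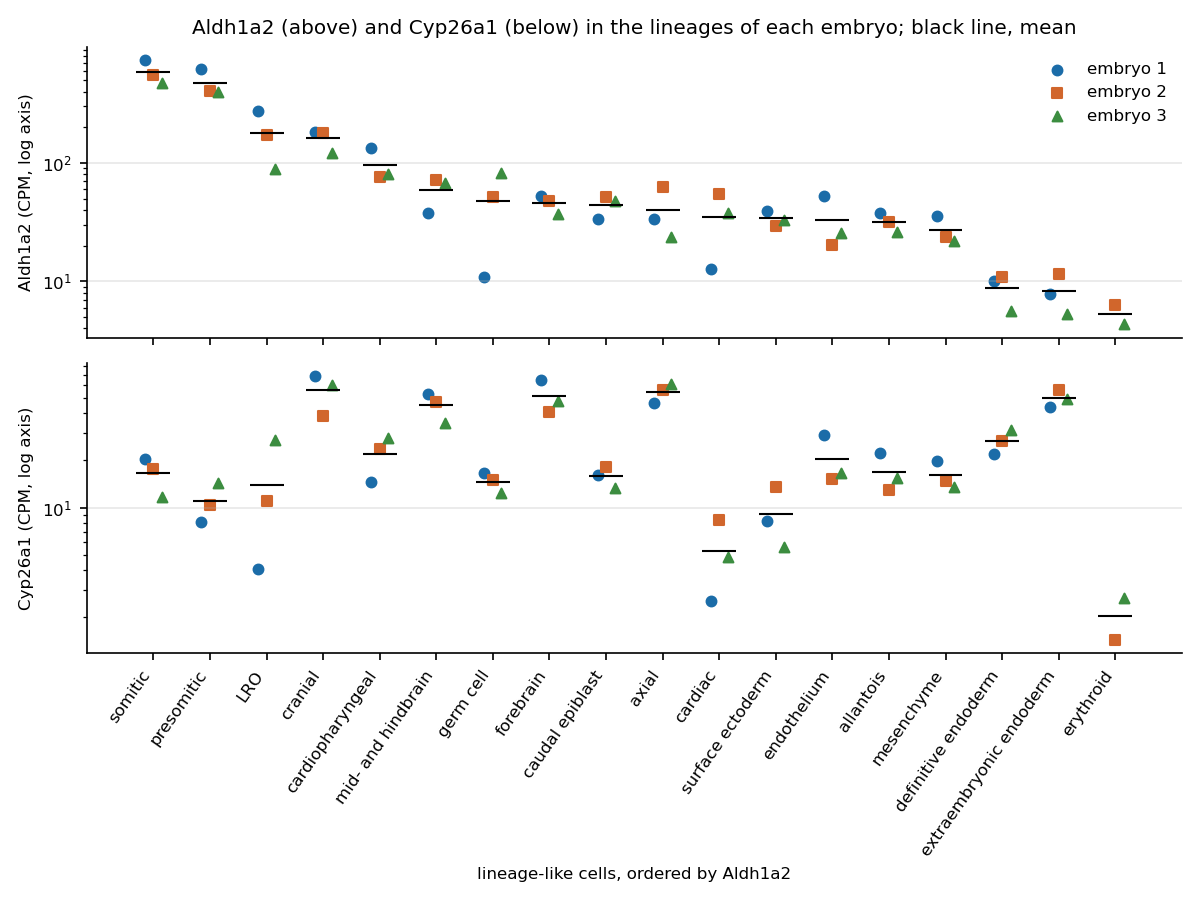
Level of Aldh1a2 (upper panel) and Cyp26a1 (lower panel) in CPM on log axes, for each lineage (horizontal axis, ordered by Aldh1a2) and embryo (symbols, with the mean as a black line); an embryo with fewer than 10 cells of a lineage is left out. Aldh1a2 was highest in the somitic- and presomitic-like cells, where Cyp26a1 stood at 16.61 and 10.97 CPM, and Cyp26a1 was highest in cranial-mesoderm-, axial-mesoderm-, forebrain- and extraembryonic-endoderm-like cells.

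Of all 57891 Aldh1a2 UMIs in kept cells, 26.6% lay in presomitic-like cells, which made up 5.76% of the cells. Another 31.2% lay in cells that matched more than 1 lineage, which made up 17.55% of the cells and 21.1% of all UMIs. The 5 genes whose mean levels over the 17 lineages with 3 embryos were most like Aldh1a2, by Pearson correlation of log2(CPM + 1) among 7989 genes and over means that share the same 3 libraries, were Pcdh19 (0.978), Meox1 (0.956), Hoxa2 (0.918), Arg1 (0.908) and Dll3 (0.908). Meox1 and Dll3 are markers that placed the somitic- and presomitic-like cells, so their likeness to Aldh1a2 was built into the lineages.

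Rdh10, the retinol dehydrogenase of the first step (chromosome 1, 16105774 to 16133734), was highest in 2 lineages that lie near opposite ends of the Aldh1a2 order. It reached 37.1, 51.4 and 38.6 CPM in extraembryonic-endoderm-like cells (42.4 ± 7.87) and 49.5, 38.2 and 31.9 CPM in somitic-like cells (39.9 ± 8.90). These 2 overlapped, and the next lineages, cranial-mesoderm- (25.8 ± 5.27 CPM), cardiopharyngeal- (24.4 ± 1.48 CPM) and endothelium-like cells (21.0 ± 4.58 CPM), did not reach them. Presomitic-like cells, rich in Aldh1a2, held 11.5, 7.48 and 7.91 CPM of Rdh10, below the 12.1 ± 1.27 CPM of erythroid-like cells and overlapping it only in embryo 1. Surface-ectoderm-like cells were lowest with 6.03 ± 0.935 CPM.

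Aldh1a3, the retinaldehyde dehydrogenase known from the later eye and nose (chromosome 7, 66390890 to 66427517), was scarce, with 423 UMIs in all kept cells. Its highest level was in erythroid-like cells, at 2.56 and 5.67 CPM in embryos 2 and 3 (4.12 ± 2.20, n = 2), from 68 UMIs in 60 of 1214 cells. Definitive-endoderm-like cells followed with 1.91, 1.93 and 2.01 CPM (1.95 ± 0.0509) and mesenchyme-like cells with 1.56 ± 0.734 CPM. No UMI was seen in 257 cardiopharyngeal-like cells, which allows a share of cells with a UMI of up to 1.17%. At this depth most neighbouring lineages overlapped (16 of 17 pairs). The highest axial-mesoderm-like (2.80 CPM) and germ-cell-like values (3.015 CPM) lay above the lowest erythroid-like value. The highest mesenchyme-like value, 2.23 CPM, lay above all definitive-endoderm-like values, so the order of the lineages was not resolved.

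Of the breakdown genes, Cyp26a1 gave 13821 UMIs in kept cells, Cyp26b1 138 and Cyp26c1 67, totals that set how finely each could be resolved between lineages. Cyp26a1 had its highest levels in 5 lineages of mesodermal, neural and extraembryonic endodermal kind, namely cranial-mesoderm-like cells with 68.9, 38.3 and 60.5 CPM (55.9 ± 15.9), axial-mesoderm-like cells with 46.2, 56.4 and 61.5 CPM (54.7 ± 7.79), forebrain-like cells with 65.0, 40.8 and 47.9 CPM (51.2 ± 12.5), extraembryonic-endoderm-like cells with 43.7, 56.3 and 49.4 CPM (49.8 ± 6.35) and midbrain-and-hindbrain-like cells with 53.1, 46.9 and 34.7 CPM (44.9 ± 9.34). These 5 overlapped from each to the next, and all lay above definitive-endoderm-like cells (21.9, 26.5 and 31.1 CPM). This was the single break among the 17 neighbouring pairs.

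Caudal-epiblast-like cells held 15.9 ± 2.44 CPM of Cyp26a1, presomitic-like cells 8.07, 10.4 and 14.4 CPM, surface-ectoderm-like cells 9.14 ± 4.02 CPM and cardiac-like cells 2.54, 8.38 and 4.83 CPM. Erythroid-like cells held 1.43 and 2.67 CPM. The cardiac-like range thus overlapped the erythroid-like level. A UMI was found in 59.5% ± 12.4 of forebrain-like, 47.5% ± 13.3 of cranial-mesoderm-like and 2.41% ± 1.43 of erythroid-like cells, and after thinning to 5000 UMIs in 22.5%, 19.3% and 1.09%. The genes most like Cyp26a1 over the lineages were Gskip (0.705), Dgcr8 (0.668), Sumo3 (0.654), Cpsf7 (0.642) and Ing2 (0.641), a weaker likeness than that of the genes nearest to Aldh1a2.

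Cyp26b1 (chromosome 6, 84571414 to 84593908) and Cyp26c1 were near the limit of detection and entered no test. Cyp26b1, known from the later hindbrain and limb, had its highest mean in surface-ectoderm-like cells with 16 UMIs (0.928 ± 0.544 CPM, from 0.364 to 1.45). That range overlapped the 0.299 to 0.507 CPM of cranial-mesoderm-like cells, which also held 16 UMIs, so a single highest lineage was not resolved. Cyp26b1 had no UMI in 4 lineages, among them 931 definitive-endoderm-like cells, which allows a share of up to 0.322%. Cyp26c1, known from the head, had 20 of its UMIs (29.9%) in cranial-mesoderm-like cells, at 0.485, 0.598 and 0.676 CPM, and 6 in forebrain-like cells. It was not seen in 12 lineages, including 1731 caudal-epiblast-like cells (up to 0.173% with a UMI) and 2381 extraembryonic-endoderm-like cells (up to 0.126%). Its cranial-mesoderm-like levels lay above those of every other lineage in each embryo, from few UMIs.

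**Figure D2:**
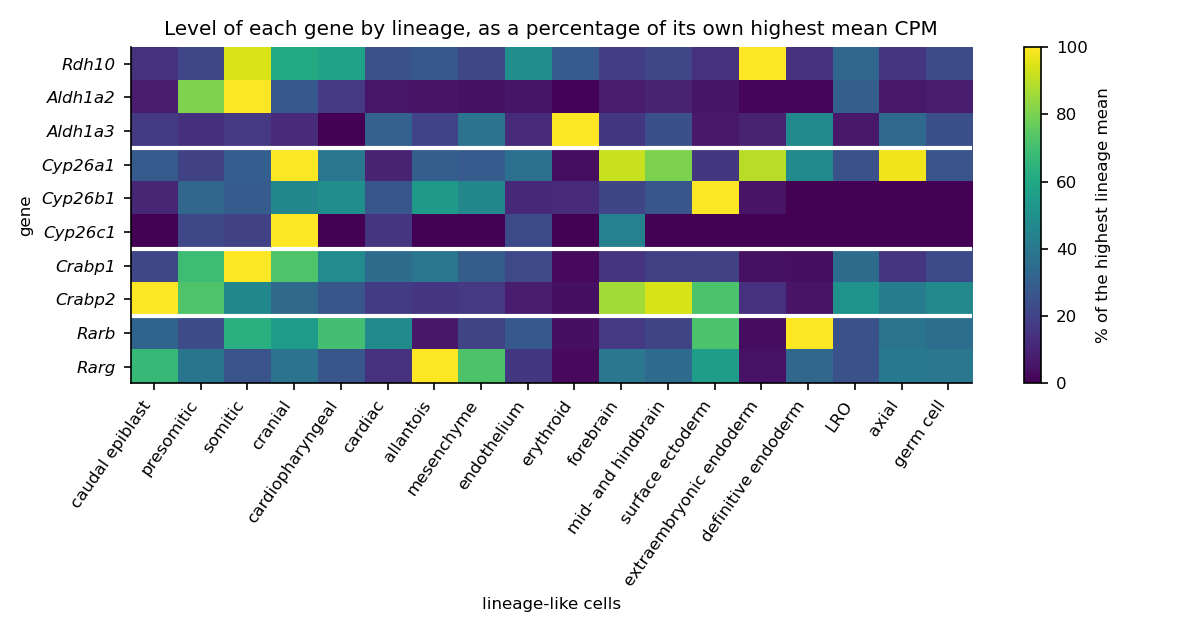
Level of each gene (rows, in role order) in each lineage (columns), as a percentage of that gene's own highest mean CPM, so rows cannot be compared with each other. Aldh1a2 and Crabp1 peak in the somitic-like column, Cyp26a1 in the cranial-mesoderm-, axial-, forebrain- and extraembryonic-endoderm-like columns, Rarb in the definitive-endoderm-like and Rarg in the allantois-like column.

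The cellular retinoic acid binding proteins carry retinoic acid within the cytoplasm, CRABP2 being known to hand it to receptors in the nucleus. Crabp1 (chromosome 9, 54764748 to 54773110) was highest in somitic-like cells at 613, 551 and 549 CPM (571 ± 36.7), above cranial-mesoderm-like (413 ± 17.7 CPM) and presomitic-like cells (394, 432 and 353 CPM), with no overlap between embryos. Crabp2 (chromosome 3, 87948666 to 87953376) had another order, with caudal-epiblast-like cells at 194, 213 and 163 CPM (190 ± 25.2), midbrain-and-hindbrain-like at 179 ± 32.5 CPM and forebrain-like at 164 ± 14.0 CPM. Both genes were low in definitive-endoderm-like cells, at 23.1 ± 3.01 CPM for Crabp1 and 9.94 ± 1.52 CPM for Crabp2. In erythroid-like cells the levels were 14.96 ± 2.432 and 7.46 ± 1.72 CPM.

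The retinoic acid receptors are nuclear receptors that bind DNA as partners of RXR. Rarb was highest in definitive-endoderm-like cells at 23.6, 28.4 and 16.3 CPM (22.8 ± 6.11), overlapping surface-ectoderm-like cells at 21.0, 13.5 and 14.4 CPM (16.3 ± 4.07). Cardiopharyngeal- (15.96 ± 6.206 CPM), somitic- (14.2 ± 4.52 CPM) and cranial-mesoderm-like cells (12.5 ± 2.17 CPM) came next. Rarb was at 0.479, 1.10 and 0.646 CPM in extraembryonic-endoderm-like cells, which overlapped the 0.978 and 0.834 CPM of erythroid-like cells.

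Rarg (chromosome 15, 102234938 to 102257517) was highest in allantois-like cells at 49.4, 52.5 and 43.8 CPM (48.6 ± 4.41), above all other lineages. Mesenchyme-like (35.0 ± 4.67 CPM), caudal-epiblast-like (32.6 ± 6.09 CPM) and surface-ectoderm-like cells (27.2 ± 3.58 CPM) overlapped from each to the next. Extraembryonic-endoderm-like cells held 1.91, 2.29 and 2.76 CPM, above the 1.13 and 1.34 CPM of erythroid-like cells. The receptors thus had different highest lineages, and both were low in extraembryonic-endoderm-like cells.

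Differences between lineages were tested with edgeR's quasi-likelihood test on UMIs summed per lineage and embryo, in 1 fit over 53 sums and 14340 genes, and adjusted by Benjamini and Hochberg over those genes. Of the 10 genes, 8 passed the filter on low counts. The lineages were fixed by other genes, but sums of 1 embryo share that animal, presomitic- and forebrain-like sums each enter 2 comparisons, and n is 3 embryos throughout. In each comparison a positive log2 fold change, given with a standard error (SE), means higher in the lineage named first. The SE was not estimated by the fit. It was worked back as the absolute log2 fold change over the square root of the F statistic of the quasi-likelihood test. Where treating the embryo as a block changed a call, the blocked adjusted p is given.

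Presomitic- against caudal-epiblast-like cells asks what differs between mesoderm about to segment and its progenitors. The adjusted p was under 0.05 for 4 of the 8 genes, where 10.8% of all genes passed (5.86% higher and 4.98% lower). Aldh1a2 was higher in presomitic-like cells by 3.43 (SE 0.325) on the log2 scale, with an adjusted p of 3.12e-11 by edgeR, and Crabp1 by 1.71 (SE 0.171), adjusted p = 1.36e-10. Both were higher in 3 of 3 embryos. Rarg was lower, at −0.82 (SE 0.156), adjusted p = 0.000124 by edgeR.

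Crabp2 was lower at −0.47 (SE 0.149), adjusted p = 0.0317 by edgeR, and this call was the weakest of the 4. It was lost with DESeq2 (adjusted p = 0.0517), with a stricter lineage gate (0.189), without embryo 2 (0.314) and without embryo 3 (0.098). Rdh10 was not called (0.57, SE 0.212, adjusted p = 0.0792), nor was Rarb (−0.49, SE 0.245, adjusted p = 0.257). Blocked, both passed, with edgeR adjusted p of 0.019 for Rdh10 and 0.043 for Rarb. Cyp26a1 was not called (−0.57, SE 0.273, adjusted p = 0.219 by edgeR), with embryo 3 on the other side of the first 2 embryos. Without the filter on low counts Cyp26a1 passed (edgeR adjusted p = 0.00444), as did Rdh10 (0.0244).

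Somitic- against presomitic-like cells sets cells with markers of somitic mesoderm beside the presomitic ones. The embryos had 0 to 1 somite, and whether the somitic-like cells had segmented was not tested. Here 3 of the 8 genes passed against 4.18% of all genes (1.98% higher and 2.2% lower). Rdh10 was higher in somitic-like cells by 2.10 (SE 0.204), edgeR adjusted p = 1.82e-10, from 49.5, 38.2 and 31.9 CPM against 11.5, 7.48 and 7.91. Rarb was higher by 1.43 (SE 0.270), adjusted p = 0.000244 by edgeR. Aldh1a2 differed by 0.29 (SE 0.292), adjusted p = 0.856 by edgeR, so a difference in the oxidising enzyme was not detected while the dehydrogenase of the step before it was higher.

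Crabp2 was lower in somitic-like cells at −0.65 (SE 0.162), edgeR adjusted p = 0.0077, a call lost without embryo 1 (0.0914) or embryo 3 (0.0916). Crabp1 (0.52, SE 0.167, adjusted p = 0.0672) and Rarg (−0.64, SE 0.203, adjusted p = 0.0606) were not called by edgeR, and passed with the embryo as a block, at 0.00541 and 0.0157. Without the filter on low counts both passed as well (3.38e-05 and 0.0217), as did Rarg with no upper gene limit and no lower mitochondrial limit (0.0465) and without the top doublet scores (0.0345). Cyp26a1 was not called (0.67, SE 0.321, adjusted p = 0.369 by edgeR) and passed without the filter on low counts (0.0141), with embryo 3 on the other side of embryos 1 and 2. Crabp2 had its lowest presomitic-like value at 130 CPM and its highest somitic-like value at 93.8 CPM, so the groups did not overlap.

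**Figure D3:**
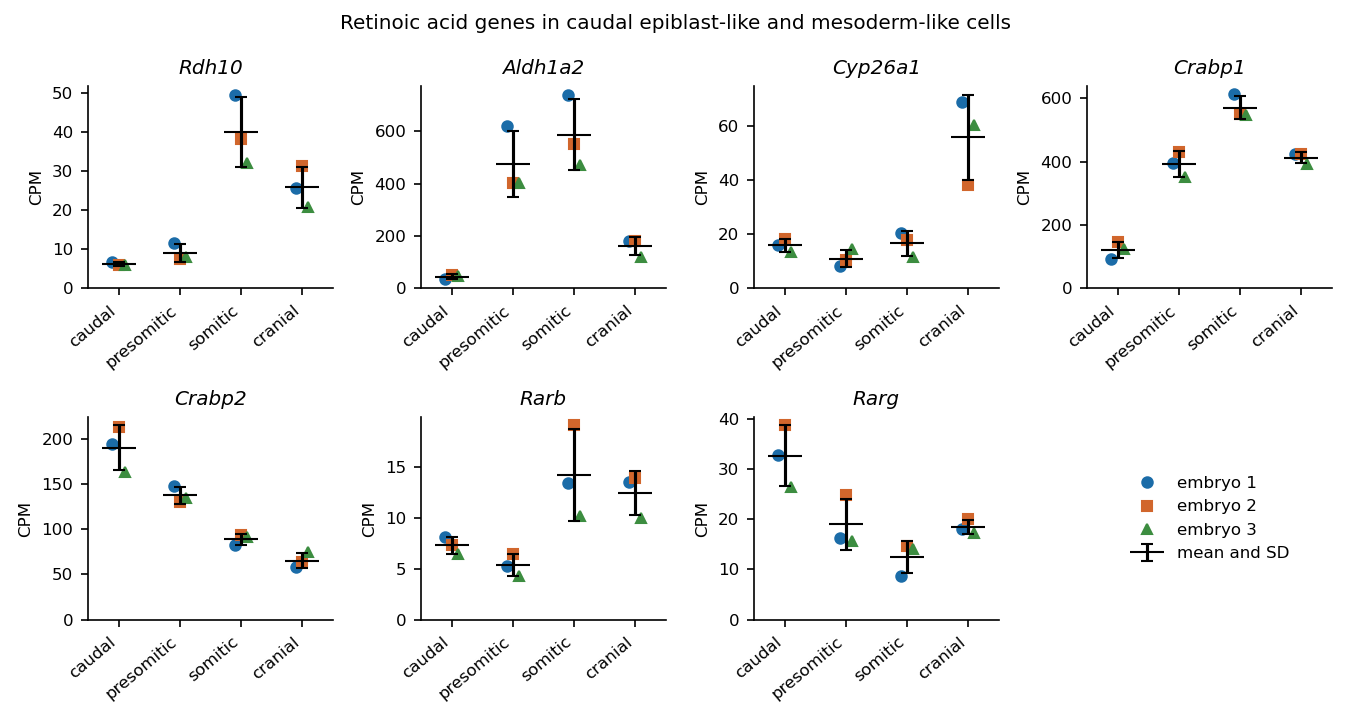
CPM (vertical axes, from 0) of 7 retinoic acid genes in caudal-epiblast-, presomitic-, somitic- and cranial-mesoderm-like cells, with 1 symbol per embryo and the mean and SD over 3 embryos as bars. Aldh1a2 and Crabp1 step up between the first 2 lineages, Rdh10 and Rarb between presomitic- and somitic-like cells, and Crabp2 and Rarg have their highest means in the caudal-epiblast-like cells.

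LRO- against axial-mesoderm-like cells sets the organizer of the left-right axis beside the notochord and prechordal plate. It held 3 of the 8 genes past the threshold, where 8.79% of all genes passed (6.24% higher and 2.55% lower). Aldh1a2 was higher in LRO-like cells by 2.08 (SE 0.480), edgeR adjusted p = 0.00213, from 275, 172 and 88.6 CPM against 33.5, 62.1 and 23.8 CPM. Crabp1 was higher by 1.21 (SE 0.235), adjusted p = 0.000206 by edgeR, and Cyp26a1 lower at −1.79 (SE 0.448), adjusted p = 0.00502, with 4.07, 11.1 and 26.8 CPM against 46.2, 56.4 and 61.5 CPM. The Cyp26a1 call was lost without embryo 2 (adjusted p = 0.0811 by edgeR). The 3 genes moved the same way in 3 of 3 embryos.

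Markers of mesoderm moved with this comparison. The presomitic marker list summed to 82.0 to 194 CPM in LRO-like and 34.4 to 53.1 CPM in axial-mesoderm-like cells, and the somitic list to 62.7 to 139 CPM and 13.6 to 36.7 CPM, with 2 of the 5 somitic markers at 0 in LRO-like cells. Of the 106 LRO-like cells, 18, 13 and 21 of embryos 1, 2 and 3 held a UMI of Aldh1a2. In these the somitic list stood at 138, 212 and 77.9 CPM, against 15.4, 43.6 and 35.3 CPM in the LRO-like cells without one, while the LRO markers stood at 1708, 1436 and 824 CPM against 2768, 2940 and 1798 CPM. The cells with Aldh1a2 were also deeper, with medians of 29122.5, 23273 and 32673 UMIs against 11186, 8910 and 18330. The part of mesodermal RNA or of mixed cells in the LRO-like level of Aldh1a2 was not tested.

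Between forebrain- and midbrain-and-hindbrain-like cells none of the 8 genes passed the edgeR test, where 0.488% of all genes did (0.251% higher and 0.237% lower), and none had an unadjusted p under 0.05 (the lowest was 0.14, for Crabp1). DESeq2 also called none. Cyp26a1 differed by 0.20 (SE 0.261) and Crabp2 by −0.11 (SE 0.157) on the log2 scale. Surface-ectoderm- against forebrain-like cells gave 2 of the 8 genes, with 13.5% of all genes past the threshold (7.46% higher and 6.08% lower). Cyp26a1 was lower in surface-ectoderm-like cells at −2.57 (SE 0.286), edgeR adjusted p = 1.49e-09, with 8.24, 13.5 and 5.64 CPM against 65.0, 40.8 and 47.9 CPM. Rarb was higher by 2.08 (SE 0.258), adjusted p = 1.95e-08 by edgeR. Rarg (0.46, SE 0.164) had an edgeR adjusted p of 0.0509, and 0.00728 with the embryo as a block. Without the filter on low counts Rarg passed (edgeR adjusted p = 0.0261), as did Aldh1a2 (0.00778) and Crabp1 (0.0211), which were not called with it.

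Definitive- against extraembryonic-endoderm-like cells gave the largest receptor differences of the 7 comparisons. It had 6 of the 8 genes past the threshold, but 60.2% of all genes passed (29.5% higher and 30.7% lower), so that count is close to that of genes in general. Rarb was higher in definitive-endoderm-like cells by 4.51 (SE 0.287), edgeR adjusted p = 2.14e-18, and Rarg by 2.48 (SE 0.203), adjusted p = 9.14e-15. Rdh10 was lower at −3.13 (SE 0.211), adjusted p = 1.53e-17 by edgeR, Crabp2 at −1.73 (SE 0.197), adjusted p = 1.74e-10, and Cyp26a1 at −1.20 (SE 0.243), adjusted p = 3.27e-05. Aldh1a3 was higher by 1.94 (SE 0.495), adjusted p = 0.000736 by edgeR, from 40 UMIs against 19. Crabp1 (−0.42, SE 0.199, adjusted p = 0.0675 by edgeR) passed with the block, at 0.0481, and also without the filter on low counts (0.000606), without embryo 1 (0.00258) and with no upper gene limit and no lower mitochondrial limit (0.041). For Crabp1, embryo 1 lay on the other side of embryos 2 and 3.

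Cardiac- against cardiopharyngeal-like cells compares cells with heart muscle transcripts with those carrying pharyngeal progenitor markers. It held 4 of the 8 genes past the threshold, where 6.46% of all genes passed (4.18% higher and 2.28% lower). Cyp26a1 was lower in cardiac-like cells at −1.87 (SE 0.440), edgeR adjusted p = 0.00348, Rdh10 at −1.22 (SE 0.270), adjusted p = 0.00167, and Aldh1a2 at −1.41 (SE 0.385), adjusted p = 0.0154. Each was lower in 3 of 3 embryos and each call rested on single embryos, Cyp26a1 on embryo 3 (0.0934 without it) and Rdh10 on embryo 1 (0.109). Aldh1a2 was lost without embryo 1 (0.298), without embryo 3 (0.0514) and with the stricter gate (0.157). The somitic marker list moved with these genes, at 86.9 to 121 CPM in cardiopharyngeal-like and 6.18 to 44.3 CPM in cardiac-like cells with 1 of its 5 genes at 0 in each, and the presomitic list stood at 19.1 to 35.5 and 7.27 to 36.9 CPM. The part of somitic RNA in the levels of Aldh1a2 and Rdh10 was not tested. The fourth was Aldh1a3 (edgeR adjusted p = 0.0408), with 12 UMIs in cardiac-like cells and 0 in cardiopharyngeal-like cells. Pooled over embryos, its cardiac-like level was 2.66 times a floor of 3 UMIs over the cardiopharyngeal-like group. That ratio leaves out the counting error of the 12 UMIs. The Aldh1a3 call was lost with DESeq2 (0.0526), with the stricter gate (0.1) and without embryo 1 (0.243), embryo 2 (0.246) or embryo 3 (0.15). Rarg (−0.86, SE 0.287, edgeR adjusted p = 0.0646) passed with the block, at 0.0404. It also passed without the filter on low counts (0.0486), with no upper gene limit and no lower mitochondrial limit (0.0354) and without the top doublet scores (0.0213). Crabp1 and Crabp2 were not called (edgeR adjusted p = 0.207 and 0.166) and passed without the filter on low counts (0.0104 and 0.0251). Crabp2 also passed without embryo 2 (0.0261), which lay on the other side of embryos 1 and 3.

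**Figure D4:**
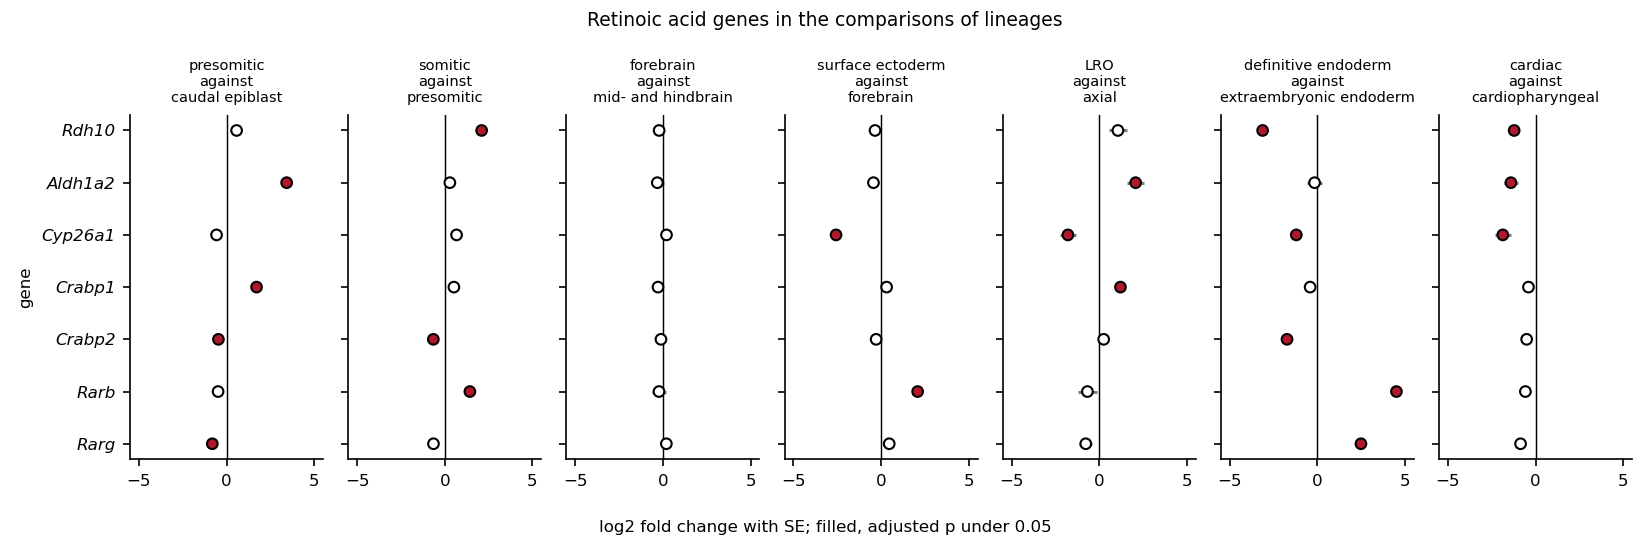
Log2 fold change (horizontal axis) with its SE, where larger than the symbol, of 7 retinoic acid genes in the 7 comparisons of lineages, from edgeR over 3 embryos; filled circles have an adjusted p under 0.05 and Aldh1a3 is left out because its counts are few. Rarb spans from −0.67 in LRO- against axial-mesoderm-like to 4.51 in definitive- against extraembryonic-endoderm-like cells, and no circle is filled between forebrain- and midbrain-and-hindbrain-like cells.

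Whether single cells hold both the enzyme that makes retinoic acid and one that removes it was asked by joint detection of Aldh1a2 and any Cyp26 gene. Sequencing depth moved with it: cells with both had medians of 42546, 30150.5 and 34356 UMIs in embryos 1, 2 and 3, and cells with neither 23814, 13449 and 14132. Depth was therefore made equal first. After thinning each cell to 5000 UMIs, 173 of 14980 cells held both, where 236.1 would be reached if the genes were independent within each lineage and embryo. The odds ratio over lineages was 0.479, 0.666 and 0.628 in the 3 embryos (0.591 ± 0.0989), below 1 in each.

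The value at another depth was of the same kind. Thinned to 10000 UMIs, 409 of 13467 cells held both against 495.7 (odds ratio 0.683 ± 0.139), and with all UMIs but within 5 depth groups per lineage 1284 of 15062 held both against 1365 (0.777 ± 0.0567). These 2 were added after the data were seen. With all UMIs and no regard to depth, the direction was the reverse, with 1284 cells against 1205 and an odds ratio of 1.19, 1.26 and 1.25 (1.23 ± 0.0412). No p is given, since cells of an embryo are not replicates.

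**Figure D5:**
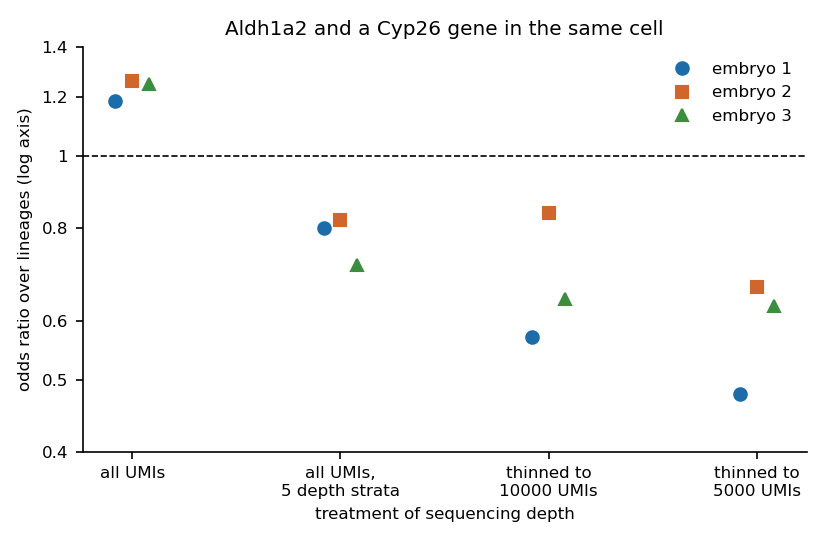
Odds ratio (log axis) of a cell holding a UMI of Aldh1a2 and one of a Cyp26 gene, stratified by lineage, for each embryo (symbols) under 4 treatments of depth (horizontal axis); the dashed line at 1 marks independence within lineages. The 3 embryos lie above 1 with all UMIs and below 1 under each of the 3 treatments that make depth more equal.

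Cranial-mesoderm-like cells, where both genes were well detected, held the largest part of the shortfall. Thinned to 5000 UMIs, 61 of 1273 of these cells had both, against 97.5 if independent, and by embryo 27 against 43.9, 9 against 20.01 and 25 against 33.6. A Cyp26 UMI was found in 14.92%, 6.122% and 14.97% of the cranial-mesoderm-like cells with Aldh1a2 and in 29.9%, 19.4% and 23.1% of those without. With all UMIs the count was also below independence, at 342 against 390.1. The cells of this lineage with a UMI of Aldh1a2 also differed in markers. Their presomitic list stood at 38.29, 54.01 and 47.95 CPM in embryos 1, 2 and 3, against 16.98, 15.96 and 15.51 CPM without one. Their cranial-mesoderm list stood at 359.7, 332.5 and 300.9 CPM against 413.9, 467.7 and 369.4 CPM. The somitic list was higher with Aldh1a2 in embryos 1 and 3 and lower in embryo 2. The part of mixed cells in the shortfall was not tested. Summed over the embryos, 29 thinned presomitic-like cells had both against 37.7, 17 somitic-like cells against 22.6 and 12 forebrain-like cells against 18.5. In embryo 2 the forebrain-like cells had no shortfall, with 4 against 3.68. With all UMIs the counts were 150 against 150.7 in presomitic-, 68 against 74.4 in somitic- and 136 against 127.1 in forebrain-like cells. Caudal-epiblast-like cells lay above independence, with 11 thinned cells against 8.33. Mesenchyme-like (9 against 7.37) and extraembryonic-endoderm-like cells (14 against 13.2) did too, from few cells. These sums held embryos below it. Embryo 1 had 1 against 2.06 in caudal-epiblast- and 0 against 0.950 in extraembryonic-endoderm-like cells, and embryo 3 had 1 against 1.59 in mesenchyme-like cells. With all UMIs caudal-epiblast-like cells had 127 against 82.8, and thinned to 10000 UMIs 32 against 25.3, above independence in each embryo both times. Those with a UMI of Aldh1a2 held the somitic list at 43.77, 112.2 and 66.2 CPM in embryos 1, 2 and 3. Those without one held it at 9.915, 8.464 and 16.03 CPM. The cells with Aldh1a2 had medians of 36549, 23172 and 26284.5 UMIs, against 26799.5, 13265 and 15294. The part of mesodermal RNA or of mixed cells in the caudal-epiblast-like counts was not tested. Endothelium-like cells had 9 against 10.35 at 5000 UMIs, but 30 against 22.5 at 10000 UMIs and 79 against 54.8 with all UMIs. Mesenchyme-like cells had 75 against 61.9 with all UMIs.

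Other genes of the pathway were read from 3 lists, none of whose genes placed a cell in a lineage: 16 genes that handle retinoids, of which 11 passed the filter, 10 receptors and cofactors and 12 genes known to respond to retinoic acid. Medians below are of log2 fold changes, beside a median of all genes between −0.0249 and 0.0238 over the comparisons, and the counts stand beside the shares of all genes higher and lower given above. In presomitic- against caudal-epiblast-like cells, 2 handling genes were higher and none lower (median 0.24), Rdh11, a retinol dehydrogenase, by 0.73 and Stra6, the retinol uptake receptor, by 0.68. Of the responding genes, 4 were higher and 2 lower (median 0.32), led by the homeobox cofactors Meis1 (0.82) and Meis2 (0.75) and the hindbrain gene Hoxb1 (0.68). Among receptors and cofactors 1 was lower, Rxrg at −1.32, and 3 were called with the embryo as a block.

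In somitic- against presomitic-like cells, 2 handling genes were higher and 1 lower (median 0.09). Dhrs3, which reduces retinaldehyde back to retinol, was higher by 1.92, with an edgeR adjusted p of 1.37e-07, and Stra6 by 0.85. Dhrs3 was higher in the same comparison as Rdh10, which catalyses the opposite reaction. Of the responding genes 2 were higher and 2 lower (median 0.06), with Nr2f2, an orphan nuclear receptor, at 2.30, Meis1 at 1.55 and Cdx1, a caudal homeobox gene, at −1.55. Rxrg was the 1 receptor gene called, lower at −1.60. None was called without embryo 1, and 2 were with the block.

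Surface-ectoderm- against forebrain-like cells had 6 responding genes higher and none lower (median 0.66), among them Meis2 (1.56), Hoxa3 (1.30) and Cdx1 (1.08). Of the handling genes 1 was higher and 1 lower (median −0.20), Dhrs3 being higher by 2.44, and 4 were called with the stricter gate and 6 with the block. Nrip1, a corepressor of nuclear receptors, and Rara were the 2 receptor genes higher, by 0.63 and 0.53. In forebrain- against midbrain-and-hindbrain-like cells, where no retinoic acid gene of the 10 passed, 3 responding genes were lower, Cdx1 (−1.0025) and Meis2 (−0.95) among them, with a median of −0.78 over the list, and 5 were called with the block. Rxrg was lower there as well, at −1.34, a call lost without any 1 of the embryos, with the stricter lineage gate and with no upper gene limit and no lower mitochondrial limit.

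LRO- against axial-mesoderm-like cells had 2 handling genes higher and none lower (median 0.57), Dhrs3 by 1.38 among them, and 3 responding genes higher and 2 lower (median 0.82), with Hoxb1 at 1.89 and Meis2 at 0.96. Among the lower genes was Tgm2, a transglutaminase (edgeR adjusted p = 0.0173), with 1 UMI in 106 LRO-like and 23 in 125 axial-mesoderm-like cells. None of 10 receptors and cofactors passed. Dhrs3 stood at 23.6 ± 0.917 CPM in LRO-like cells, its highest mean of all lineages, against 8.65 ± 2.87 CPM in axial-mesoderm-like cells. The mesodermal marker levels given above for Aldh1a2 move with these values too.

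In definitive- against extraembryonic-endoderm-like cells 3 handling genes were higher and 6 lower (median −0.30). Rbp4, the carrier of retinol in plasma, was lower at −5.62, with 4799 to 5307 CPM in extraembryonic- and 123 ± 23.2 CPM in definitive-endoderm-like cells, and Bco1, which cleaves carotene to retinaldehyde, at −4.87. Stra6 was higher by 4.02, at 26.2 ± 5.79 against 1.25 ± 0.330 CPM. Rbp4 had means of 20.8 to 122 CPM in the other lineages, and the share of free RNA in these was not tested. The receptor list had 3 of 10 genes higher, where 29.5% of all genes were, with Rxra (1.0019) and Rara (0.56) among them, and the responding list 6 higher and 4 lower (median 0.89), with Cdx1 at 2.91 and Tgm2 at −2.84. In cardiac- against cardiopharyngeal-like cells, 4 responding genes were lower and none higher (median −0.74), Hoxb1 (−1.09), Tshz1 (−1.04) and Cdx1 (−0.95) among them, and 1 handling gene was lower, Stra6 at −1.48.

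Several of these list counts rested on single embryos. In presomitic- against caudal-epiblast-like cells the 2 handling genes called became 1 without embryo 1, 1 without embryo 2 and 0 without embryo 3, and the 6 responding genes became 3 without embryo 3. In LRO- against axial-mesoderm-like cells the 2 handling genes became 1 without embryo 2 and 0 without embryo 3, and the 5 responding genes became 2 without embryo 1 or embryo 2. The 3 responding genes of the forebrain comparison became 1 without embryo 2 and 0 without embryo 3, and the 4 of the cardiac comparison 0 without embryo 1, 2 without embryo 3 and 2 with the stricter gate. In surface-ectoderm- against forebrain-like cells the 2 receptor genes became 1 without embryo 1 and 0 without embryo 2, and the 2 handling genes 1 without embryo 2. The 3 handling genes of the somitic comparison became 1 without embryo 2.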

How the data were processed

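Single-cell RNA-seq was done on 3 wildtype E8.0 embryos, 1 library each. The authors deposited filtered matrices of UMI counts, made with Cell Ranger 3.1.0 on mm10 per the submitters' processing notes, with no normalization. The kept cells had at least 1500 genes, at most 8500, 7500 and 8500 genes in embryos 1, 2 and 3, and mitochondrial UMIs of 0.5% to 10%, the lower bound (which took out 573 cells) standing in for the study's removal of clusters with low mitochondrial shares. Its removal of clusters with mixed markers was not repeated. Libraries shared 18 to 22 barcodes per pair.

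Cells were placed in a lineage when at least 3 UMIs from at least 2 genes of its marker list were seen, its marker score was at least 0.1 and at least 1.5 times the next score. A gene's share of the score is its CPM over the mean CPM of the top 1% of cells, limited to 1. Of the placed cells, 12.5% lay within 20% of these limits, from 1.64% of extraembryonic-endoderm-like to 30.0% of cardiopharyngeal-like cells. The share was 27.6% in somitic-, 24.5% in LRO-, 23.8% in midbrain-and-hindbrain- and 22.3% in cranial-mesoderm-like cells. The members, gene lists and limits were chosen with earlier results of these data known. All 10 genes are named. From the pathway lists, up to 3 called genes per list and comparison with the same sign in every embryo and the largest absolute fold changes may be named. Some genes of these lists are counted but not reported here by name. The genes most like Aldh1a2 and Cyp26a1 were taken among those reaching 20 CPM in a lineage.

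Counts were summed per lineage and embryo with at least 10 cells and tested with edgeR 4.0.16 (R 4.3.3), quasi-likelihood, with 1 mean per lineage. The procedure was run on simulated counts for the presomitic- against caudal-epiblast-like comparison. These were drawn independently for each sum, so the run could not check the fit where sums share an embryo. All sums of an embryo number come from the same animal. The deviations of such sums correlated across genes at 0.0394 to 0.443, in 21 values from the 7 compared pairs of lineages in each of 3 embryos. Alternatives were a blocked fit by embryo, leaving 1 embryo out at a time, DESeq2 1.42.0, keeping genes of low counts, at least 6 marker UMIs in place of 3, no upper gene limit and no lower mitochondrial limit, and removal of the top 6% of Scrublet scores (scanpy 1.11.5, whose own threshold called 0, 1 and 1 cells). Thinning drew 5000 UMIs per cell and left out shallower cells (112 of the kept cells), and the joint detection was also computed at 10000 UMIs and within 5 depth groups. Limits on shares after 0 UMIs use 3 counts and cover counting error only. Gene positions are from GENCODE M21, which holds 30934 of the 31054 features.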

Additional observations from a re-analysis of the deposited data

How the results depend on the processing

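The 22 calls of the 10 genes kept their direction in all 198 alternatives and stayed past the threshold in 181. The 17 losses came from leaving out an embryo, the stricter gate or DESeq2 and are given beside the results. The 34 results not called stayed so in 278 of 305 alternatives, and 12 of the 34 passed without the filter on low counts. The replicate block moved the number of genes called from 1554 to 2533 in presomitic- against caudal-epiblast-like cells, from 600 to 930 in somitic- against presomitic-like, from 70 to 153 in forebrain- against midbrain-and-hindbrain-like and from 1942 to 2919 in surface-ectoderm- against forebrain-like cells. It changed no other call among the results given, and moved no other list count by over 1.5 times. Without the filter on low counts, 192 genes were called in the forebrain comparison in place of 70. Leaving out 1 embryo gave 833 to 1069 genes in the presomitic, 280 to 414 in the somitic, 26 to 42 in the forebrain, 1185 to 1277 in the surface ectoderm, 652 to 1086 in the LRO and 524 to 586 in the cardiac comparison, where fewer samples enter the fit. The share of presomitic-like cells with Aldh1a2 moved from 91.1% to 75.4% on thinning, which moved 27 of the 30 shares examined, while the stricter gate moved 1. The odds ratio of joint detection was 1.23 with all UMIs and reversed to 0.591 at 5000 UMIs, 0.683 at 10000 UMIs and 0.777 within depth groups, the last 2 chosen after seeing the data. It was 1.13 ± 0.247 with at least 2 UMIs and 1.16 ± 0.0709 without the top doublet scores. With at least 2 UMIs the embryos lay on both sides of 1, at 0.890, 1.38 and 1.125 in embryos 1, 2 and 3. Depth limits Cyp26b1, Cyp26c1 and Aldh1a3 most, whose levels rest on a few UMIs per lineage.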

Other observations

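Cells outside the 18 lineages also held these genes. The 3790 cells that matched more than 1 lineage carried Aldh1a2 at a mean of 165 CPM and held 31.2% of its UMIs, against 21.1% of all UMIs. The 2741 cells that matched none held Crabp2 at 178 CPM, 22.1% of its UMIs, and 15 of the 67 UMIs of Cyp26c1. Among the pairs of lineages matched together, allantois- with mesenchyme-like was the most frequent with 522 cells, and LRO- with axial-mesoderm-like made up 65.

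Stra6, which takes up retinol, was highest in somitic-like cells at 40.1 ± 4.85 CPM and stood at 26.2 ± 5.79 CPM in definitive-endoderm-like and 22.03 ± 2.021 CPM in presomitic-like cells. Meis1 was at 126 ± 21.9 CPM in cardiac-like and 103 ± 26.2 CPM in cardiopharyngeal-like cells, where Aldh1a2 stood at 35.2 ± 21.2 and 97.0 ± 32.3 CPM.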
